A study of Mus musculus with 48 samples.

Results

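The synaptic vesicle and release machinery was followed here as 36 genes, chosen by name: the SNARE proteins that fuse a vesicle with the presynaptic membrane, the calcium sensors that trigger fusion, the proteins of the vesicle membrane, the scaffold of the active zone, the small GTPase Rab3 and its effector, the complexins, the proteins that take spent SNARE complexes apart, and the synapsins. Every non-control probe whose gene name was one of the 36 was taken, which gave 64 of 55681 probes and 36 of 34844 gene names on the array. After filtering on signal, 34 of the 36 genes were detected in the medial prefrontal cortex (mPFC; all detected genes, 20524) and 17 in blood (all detected genes, 16322).

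RNA was measured in 24 female C57BL/6J mice, 17 weeks old, in 4 groups of 6. Control mice had a sham operation and no stress, CUMS mice had a sham operation and chronic ultra-mild stress (a repeated schedule of mild disturbances of cage, light and food), OVX mice had both ovaries removed and no stress, and OVX+CUMS mice had both. All mice were killed under pentobarbital, and each gave 1 mPFC array and 1 blood array, the blood RNA coming from the cell pellet. The replicates are separate mice. The question put to these genes is whether ovariectomy, stress or both changed their RNA in mPFC, and whether the same genes could be read in blood at all.

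The array intensities were divided by each array's 75th percentile and are given as log2, so 0 is the 75th percentile of that array. This percentile was 572 to 689 in mPFC and 54.9 to 192 in blood, in arbitrary intensity units, and 31637 to 38096 probes per mPFC array and 23664 to 34905 per blood array were well above background. In blood the percentile differed by group: 81.3 to 132 in control, 54.9 to 105 in CUMS, 110 to 192 in OVX and 103 to 144 in OVX+CUMS arrays. The quality check of the extraction software placed every mPFC array in range. It marked most blood arrays for evaluation, and the blood arrays in range were all control arrays. No intensity was saturated. Levels are compared only within a probe, never between genes, and the number of arrays sets the precision. The arrays lay on 3 slides per tissue, and slide and group were almost nested: all 6 control arrays shared slide 1 with 2 of the CUMS arrays, the remaining 4 CUMS arrays shared slide 2 with 4 OVX arrays, and the last 2 OVX arrays shared slide 3 with the 6 of OVX+CUMS. No slide held both control and OVX+CUMS arrays. Of 10 neuron marker genes 9 were detected in mPFC, as were 8 of 8 interneuron, astrocyte, oligodendrocyte and microglia markers each, but also 8 of 8 striatum markers and 4 of 7 olfactory bulb markers. In blood 8 of 8 erythroid, B cell, T cell and platelet markers each were detected. Detected there too were 4 of 10 neuron, 3 of 8 astrocyte, 6 of 8 oligodendrocyte, 6 of 8 microglia and 3 of 7 olfactory bulb markers. A single OVX+CUMS mouse (number 5) stood apart in neutrophil markers in both tissues, their mean being 3.01 above the 24-array mean in mPFC (other OVX+CUMS mice -0.49 to 0.45) and 3.48 in blood. Without its array the counts of release genes called in mPFC were 13 instead of 15 for OVX and 13 instead of 14 for OVX+CUMS against control. In these bulk samples, fewer cells of a type and less RNA per cell cannot be told apart.

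Neurotransmitter is stored in synaptic vesicles that are filled, docked at the active zone, primed, fused on a calcium signal and then recycled. Vamp2 on the vesicle zips together with Stx1a (syntaxin 1A) and Snap25 on the plasma membrane, Unc13a and Rims1 prime the vesicle, complexins clamp and promote fusion, and synaptotagmins sense calcium. After fusion the ATPase Nsf, held by the SNAP adaptors Napa and Napb, pulls the SNARE complex apart, and synapsins tether the reserve pool of vesicles. Many of these genes are used almost wholly by neurons, but the SNARE, Rab and Nsf families serve secretion in other cells too, including platelets and granulocytes.

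Several probes for these genes carry repetitive letters, which matters for reading the blood values below, so they are shown first, as the first 30 bases of the 60-base probe unless stated. Capitals mark a stretch made only of A and G, a stretch of CA repeats, or, for Rab3c, letters that also occur in the mouse B1 repeat (other probes were searched for them with any base at the middle of the run of G). Positions are those of the array's annotation (mm9). The 4 Cplx2 probes that were detected in both tissues were A and G throughout, and 2 of them are shown:
Cplx2, probe A_55_P2040775 (chr5:112438094-112438174): AAGGAGGAGGAGGAGGAGGAGAAGGAAGAG
Cplx2, probe A_55_P2067960 (chr6:140877310-140877369, minus strand): AGGAGGAGGAGGAGGAGGAGGAGGAGGAGG
Cplx2, probe A_51_P485161, of mixed bases (chr13:54485200-54485259): tccccactttgtatgatgcaaatgctaaga
Rab3c, bases 25 to 54 of probe A_55_P2095854 (chr13:110850524-110850583, minus strand): atagcaaaGGCTACACAGGGAAACCtgctt
Rab3c, probe A_55_P1956567, with none of these repeats (chr13:110844454-110844513, minus strand): ctgttaggtatttagtttgtgtgtgaattc
Snap25, probe A_55_P2051849 (chr2:136607709-136607768): CACACACACACACACACACAaagtggattt
The array's annotation itself placed 2 of the Cplx2 probes on chromosomes 5 and 6, away from the 3 on chromosome 13. Whether a probe lies in an exon or an intron was not looked up, because no mm9 annotation was used here.

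In mPFC, 15 of the 34 detected genes were higher with OVX and 0 were lower, the changes being small (0.10 to 0.27 log2), and this direction turned when the arrays were scaled to their spike-in controls instead of the 75th percentile (0 higher and 3 lower). The OVX effect is the mean of the OVX and OVX+CUMS groups minus that of the control and CUMS groups, from a limma fit over all 4 groups with Benjamini-Hochberg adjustment at 0.05. Over all detected genes 19.8% were called higher and 12.8% lower. The median OVX effect was 0.11 for the 34 genes and 0.04 for all genes, and 30 of the 34 were above 0. With the spike-in scaling, which moved the median of all genes to -0.09, the median of the 34 was -0.03. Of all 20524 detected genes, that scaling called 98 higher and 4487 lower. With the slide as a block in the fit, 0 of the 34 genes and 0 of all genes were called, and 4 of the 34 had an unadjusted p under 0.05.

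The stress effect was narrower. The CUMS effect, the mean of the CUMS and OVX+CUMS groups minus that of the control and OVX groups, was past the threshold for Stx1a and Syn3, both higher, where 2.48% of all genes were called higher and 2.05% lower. None of the 34 was called for CUMS with spike-ins (3 had an unadjusted p under 0.05) or with the slide as a block (5 had an unadjusted p under 0.05), which gave Stx1a 0.20 (adjusted p = 0.343) and Syn3 0.16 (adjusted p = 0.624). The median CUMS effect was 0.07 for the 34 genes and 0.01 for all genes. None of the 34 was called for the interaction of stress and ovariectomy in limma (7 had an unadjusted p under 0.05), against 4.73% of all genes. Between OVX+CUMS and control mice 14 of the 34 genes were higher and 0 lower, namely the 15 of the OVX effect without Rab3b, with 21.1% of all genes called higher and 14.1% lower. The median of this difference was 0.16 for the 34 genes and 0.06 for all genes. It was -0.09 with the spike-in scaling, when 0 of the 34 were called higher and 6 lower and the median of all genes was -0.20. Of all 20524 detected genes, 85 were then called higher and 7680 lower. Control and OVX+CUMS arrays shared no slide, and with the slide as a block 0 of the 34 and 0 of all genes were called for this difference (4 of the 34 had an unadjusted p under 0.05).

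**Figure D1:**
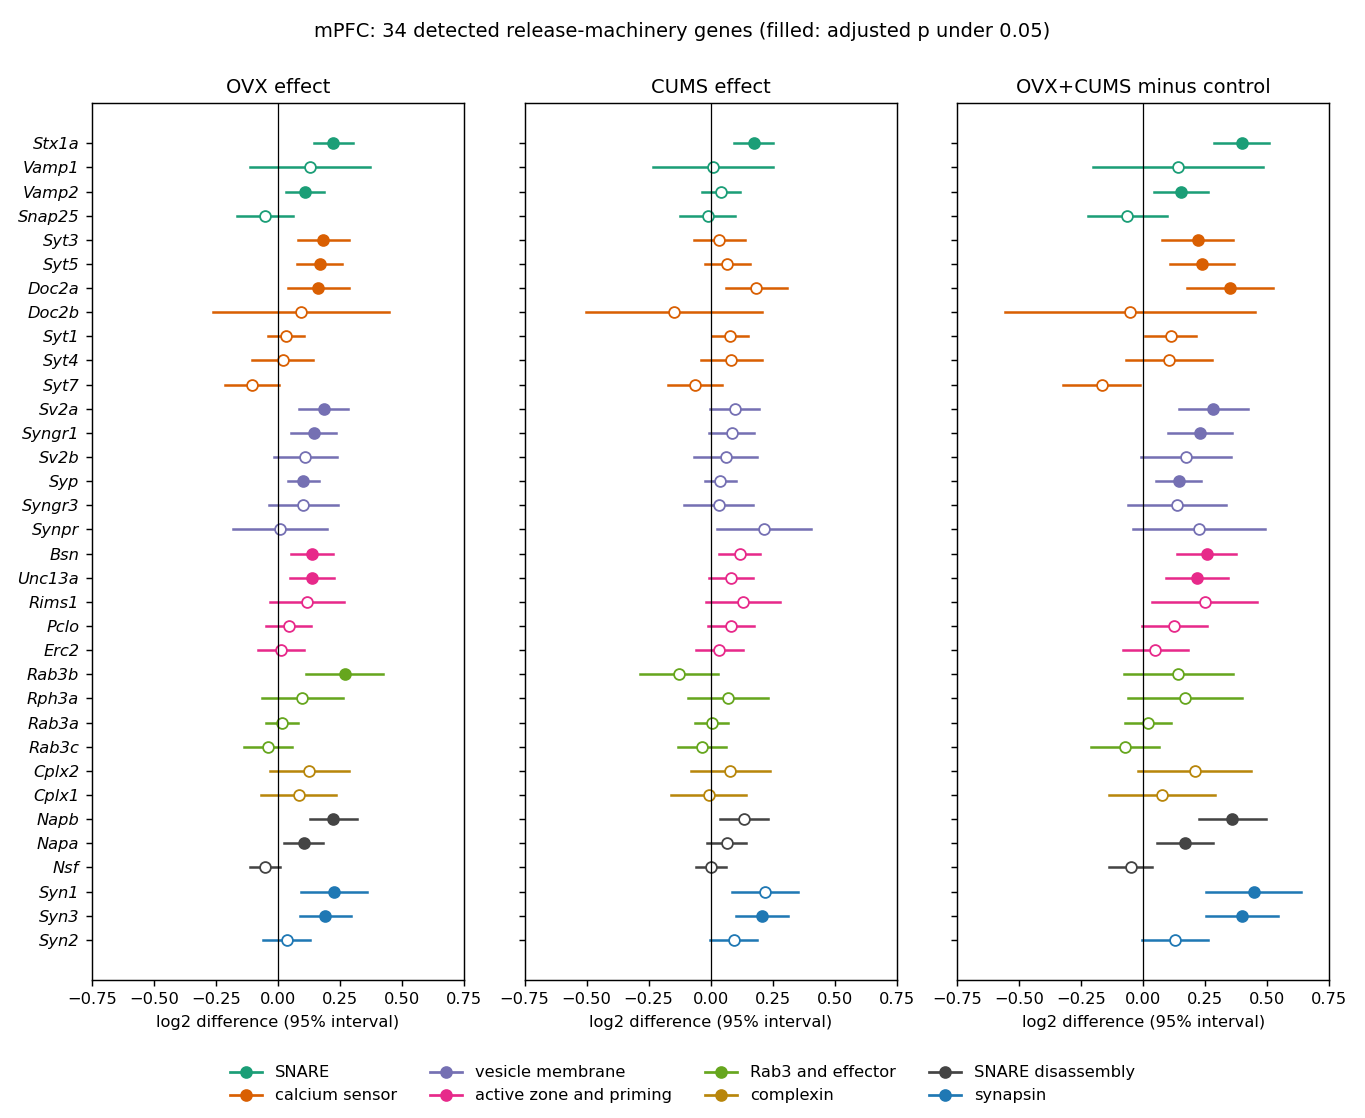
Differences in mPFC for the 34 detected genes, grouped by role. Points are log2 differences from the limma fit for the OVX effect, the CUMS effect and OVX+CUMS minus control, bars are 95% intervals, and filled points have an adjusted p under 0.05 (15, 2 and 14 genes). All filled points lie to the right of 0 at this scaling, whereas none of the genes was called higher when arrays were scaled to spike-ins.

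Among the SNARE proteins, Stx1a was the member with the clearest steps between groups. Syntaxin 1A is the plasma membrane partner of the vesicle SNARE. Its level (log2, lowest, median and highest of 6 arrays) was 3.90, 4.05 and 4.2 (control), 4.18, 4.29 and 4.31 (CUMS), 4.18, 4.31 and 4.46 (OVX) and 4.33, 4.46 and 4.52 (OVX+CUMS). Every OVX+CUMS array was above every control array, the OVX group overlapped with both, and the CUMS group overlapped with control and lay just below the OVX+CUMS group. The OVX effect was 0.22 ± 0.04 (SE, adjusted p = 0.000194), the CUMS effect 0.17 ± 0.04 (adjusted p = 0.0233), and OVX+CUMS exceeded control by 0.40 ± 0.05 (adjusted p = 2.2e-05), a fold of 1.32. An exact two-sided permutation test of OVX+CUMS against control gave p = 0.00216, the smallest that 6 against 6 can give. With the slide as a block the difference was 0.47 (adjusted p = 0.474). Within slide 1 CUMS exceeded control by 0.19, within slide 3 OVX+CUMS exceeded OVX by 0.21, and within slide 2 OVX exceeded CUMS by 0.07, none past the adjusted threshold.

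Vamp2, the main vesicle SNARE of the forebrain, ran from 6.10 over 6.21 to 6.28 in control mice and from 6.26 over 6.33 to 6.43 in OVX+CUMS mice, with CUMS mice at 6.16, 6.26 and 6.46 and OVX mice at 6.20, 6.37 and 6.45. The control and OVX+CUMS groups overlapped slightly. With OVX it differed by 0.11 ± 0.04 (adjusted p = 0.0294) and was lost in 5 of 24 fits that left out 1 array. Snap25, their partner on the plasma membrane, was not called. Its level was 6.42, 6.52 and 6.82 in control, 6.30, 6.47 and 6.63 in CUMS, 6.31, 6.46 and 6.53 in OVX, and 6.33, 6.40 and 6.75 in OVX+CUMS mice, fully overlapping, and its OVX effect was -0.05 ± 0.05 (adjusted p = 0.497). The only Snap25 probe begins with CA repeats. Vamp1, the vesicle SNARE more common in hindbrain and spinal cord, differed by 0.13 for OVX and was not called.

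Syn1 and Syn3 had the 2 largest differences between OVX+CUMS and control among the 34 genes. Syn1 stood at 5.69, 6.38 and 6.46 (control), 6.49, 6.67 and 6.72 (CUMS), 6.57, 6.62 and 6.70 (OVX) and 6.61, 6.74 and 6.84 (OVX+CUMS). All 18 arrays of the other groups were above all 6 control arrays, and 1 control array stood 0.63 below the next. The combined difference was 0.45 ± 0.09 (adjusted p = 0.000832), a fold of 1.36, and ran from 0.33 to 0.48 when 1 array was left out. The OVX effect was 0.23 ± 0.07 (adjusted p = 0.011) and the CUMS effect 0.22 (adjusted p = 0.0544).

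Syn3, a synapsin best known from developing neurons, lay at -0.47, -0.21 and -0.11 (control), -0.15, 0.15 and 0.32 (CUMS), -0.05, 0.16 and 0.20 (OVX) and 0.07, 0.16 and 0.32 (OVX+CUMS). All OVX and OVX+CUMS arrays were above the control arrays, and 1 CUMS array lay within the control range. The difference for OVX was 0.19 ± 0.05 (adjusted p = 0.00592), the CUMS effect 0.21 ± 0.05 (adjusted p = 0.0286, lost in 5 of 24 fits without 1 array) and the combined difference 0.40 ± 0.07 (adjusted p = 0.000218). The interaction of -0.30 had an adjusted p of 0.0785. A second Syn3 probe differed by -0.26 for OVX and was not called, and with the mean of both probes the OVX effect was -0.04. Syn2 was not called (OVX effect 0.04).

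For the disassembly factors, both SNAP adaptors were higher with OVX and the ATPase was not. Napb, the brain form of the adaptor, was 5.14, 5.22 and 5.32 (control), 5.09, 5.49 and 5.56 (CUMS), 5.44, 5.51 and 5.58 (OVX) and 5.47, 5.54 and 5.80 (OVX+CUMS). Both ovariectomized groups lay wholly above the control group, whereas the lowest CUMS array lay below it. For OVX it differed by 0.22 ± 0.05 (adjusted p = 0.000961). Its combined difference was 0.36 ± 0.07 (adjusted p = 0.000271), and a second probe gave 0.20 and 0.35, both called. With the slide as a block in limma, the brightest Napb probe gave 0.05 (adjusted p = 0.95) and 0.10 (adjusted p = 0.977). Within slide 2 its OVX arrays exceeded the CUMS arrays by 0.002, while CUMS arrays of slide 2 exceeded those of slide 1 by 0.27. Napa, the widely used form, was called at its brightest probe (0.10, adjusted p = 0.0411) but not at its second probe (-0.02), and the call was lost in 14 of the 24 fits that left out 1 array. Nsf differed by -0.05 (adjusted p = 0.182).

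Rab3b was the exception among the genes called for OVX, because its level was high in OVX mice and not in OVX+CUMS mice. Rab3 proteins are small GTPases that ride on vesicles and bind Rims1 and Rph3a when active. Rab3b stood at 4.08, 4.46 and 4.67 (control), 4.28, 4.49 and 4.68 (CUMS), 4.68, 4.94 and 5.07 (OVX) and 4.2, 4.58 and 4.75 (OVX+CUMS). The OVX group lay above control throughout, and its lowest array fell within the range of the OVX+CUMS group. The OVX effect was 0.27 ± 0.08 (adjusted p = 0.0095), OVX+CUMS differed from control by 0.14 (adjusted p = 0.324; exact permutation p = 0.297), and the interaction was -0.48 ± 0.15 (adjusted p = 0.0652). Within slide 2 the 4 OVX arrays exceeded the 4 CUMS arrays by 0.38 (adjusted p = 0.0828).

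The other Rab3 genes were not called at their brightest probes, Rab3a at 0.02, Rab3c at -0.04 and the effector Rph3a (rabphilin) at 0.10 for OVX. The Rab3c probe with the B1 letters shown above was lower with OVX (-0.23, adjusted p = 0.00103), in contrast to the brightest Rab3c probe.

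**Figure D2:**
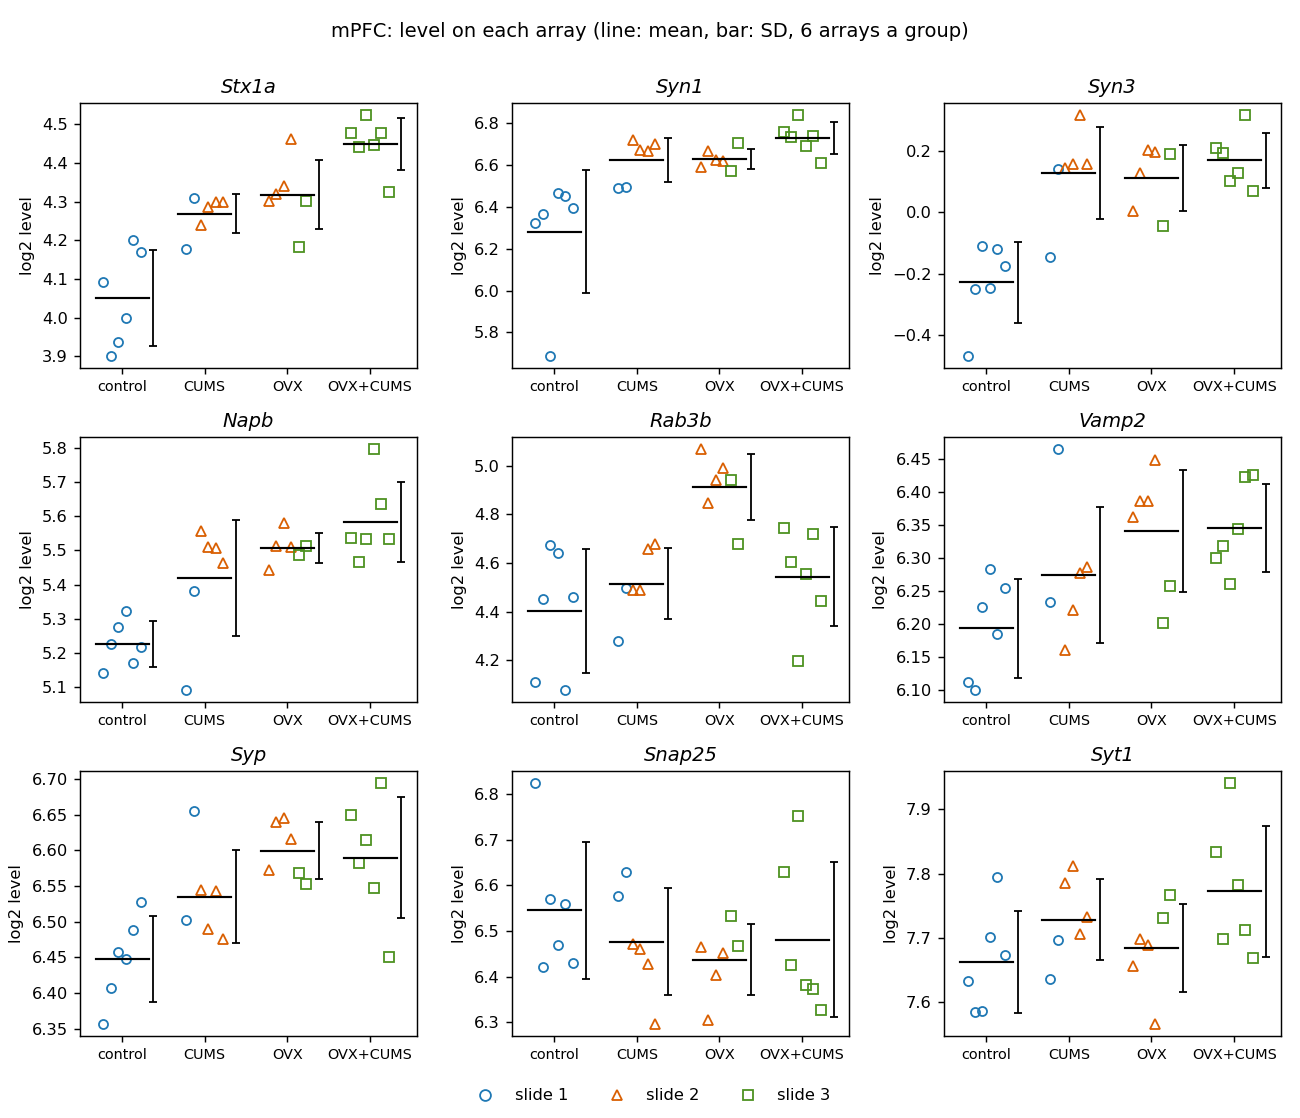
Level of 9 genes on each mPFC array, as log2 of the intensity over the array's 75th percentile, by group and slide (marker shape), with the mean (line) and SD (bar) of 6 arrays. In Stx1a, Syn1, Syn3 and Napb every OVX+CUMS array lies above every control array, in Rab3b the OVX group stands highest, and Snap25 and Syt1 overlap in all groups. Control arrays are all on slide 1 and OVX+CUMS arrays all on slide 3.

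Of the calcium sensors, 3 of 7 were called for OVX, and the main forebrain sensor was not among them. Syt1, the fast sensor for synchronous release, was 7.59, 7.65 and 7.80 in control, 7.64, 7.72 and 7.81 in CUMS, 7.57, 7.69 and 7.77 in OVX and 7.67, 7.75 and 7.94 in OVX+CUMS mice. These ranges overlapped, and the OVX effect of 0.03 was not called (adjusted p = 0.508). Syt3 (0.18, adjusted p = 0.00676) and Syt5 (0.17, adjusted p = 0.00611) were higher with OVX, as was Doc2a (0.16, adjusted p = 0.0397), a sensor for asynchronous and spontaneous release. A second Syt3 probe was also called (0.19). The Doc2a call for OVX was lost in 13 of 24 fits without 1 array, but its combined difference of 0.35 ± 0.08 (adjusted p = 0.00293) held in all 24, and its control and OVX+CUMS arrays did not overlap. Doc2b (0.09), Syt4 (0.02) and Syt7 (-0.11) were not called for OVX, and Syt2, the fast sensor of hindbrain synapses, was not detected. The probes of Syt7 disagreed, the brightest giving -0.17 (adjusted p = 0.0866) and the other 0.42 (adjusted p = 0.00615) for OVX+CUMS minus control.

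In the vesicle membrane, Syp (synaptophysin), Sv2a and Syngr1 were higher with OVX. Synaptophysin, the most widely used vesicle marker, was 6.36, 6.45 and 6.53 (control), 6.48, 6.52 and 6.66 (CUMS), 6.55, 6.59 and 6.65 (OVX) and 6.45, 6.60 and 6.69 (OVX+CUMS). All OVX arrays were above all control arrays, but the OVX+CUMS group reached into the control range. Its OVX effect was 0.10 ± 0.03 (adjusted p = 0.0127). With normexp background correction or quantile normalization that effect was 0.04 and not called (adjusted p = 0.371 and 0.39). Sv2a, the vesicle protein that binds the drug levetiracetam, differed by 0.18 (adjusted p = 0.00549) and Syngr1 (synaptogyrin 1) by 0.14 (adjusted p = 0.0162), with 0.15 at a second, also called probe. Sv2b (0.11), Syngr3 (0.10) and Synpr (0.01) were not called, Sv2c was not detected, and a second Synpr probe was lower with OVX (-0.23, adjusted p = 0.0442).

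Among the active zone and priming genes, the scaffold Bsn (bassoon) and the priming factor Unc13a (Munc13-1) were higher with OVX. Bsn differed by 0.14 (adjusted p = 0.0125) and Unc13a by 0.14 (adjusted p = 0.0185), and by 0.26 and 0.22 between OVX+CUMS and control. A second Unc13a probe gave 0.12 and was not called. Pclo (piccolo, the large partner of bassoon) at 0.04, Erc2 at 0.01 and Rims1 at 0.12 were not called.

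The 2 complexins were not called at their brightest probes (Cplx1 0.08 and Cplx2 0.13 for OVX). The 5 probes of Cplx2 disagreed: 2 of the 4 probes made of A and G were higher with OVX (0.26 and 0.24), while the probe of mixed bases gave 0.03. For OVX+CUMS minus control 3 of the 4 gave 0.31 to 0.48, called, and the probe of mixed bases gave -0.05. Of the 37 other probes on the array with at least 95% A and G, whatever their gene, 36 were detected in mPFC, with a median OVX effect of 0.12 (7 higher, 2 lower).

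By role, the genes higher with OVX at the 75th percentile scaling were 2 of 4 SNARE genes, 3 of 7 detected calcium sensors, 3 of 6 detected vesicle membrane genes, 2 of 5 active zone genes, 1 of 4 Rab3 genes, 0 of 2 complexins, 2 of 3 disassembly factors and 2 of 3 synapsins. Arrays of OVX+CUMS and control mice did not overlap for 5 of the 34 genes (Stx1a, Syn1, Syn3, Napb and Doc2a), all higher in OVX+CUMS mice, where 9.1% of all genes stood wholly higher and 9.54% wholly lower. The mean of the 34 genes per array, each gene centred on its mean over all 24 arrays, stood at -0.11 ± 0.05 (SD, n = 6) for control, 0.01 ± 0.06 for CUMS, 0.04 ± 0.03 for OVX and 0.06 ± 0.04 for OVX+CUMS. The control group stood lowest and the 3 treated groups lay close together. For the synapsins alone these means were -0.22, 0.07, 0.05 and 0.11.

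**Figure D3:**
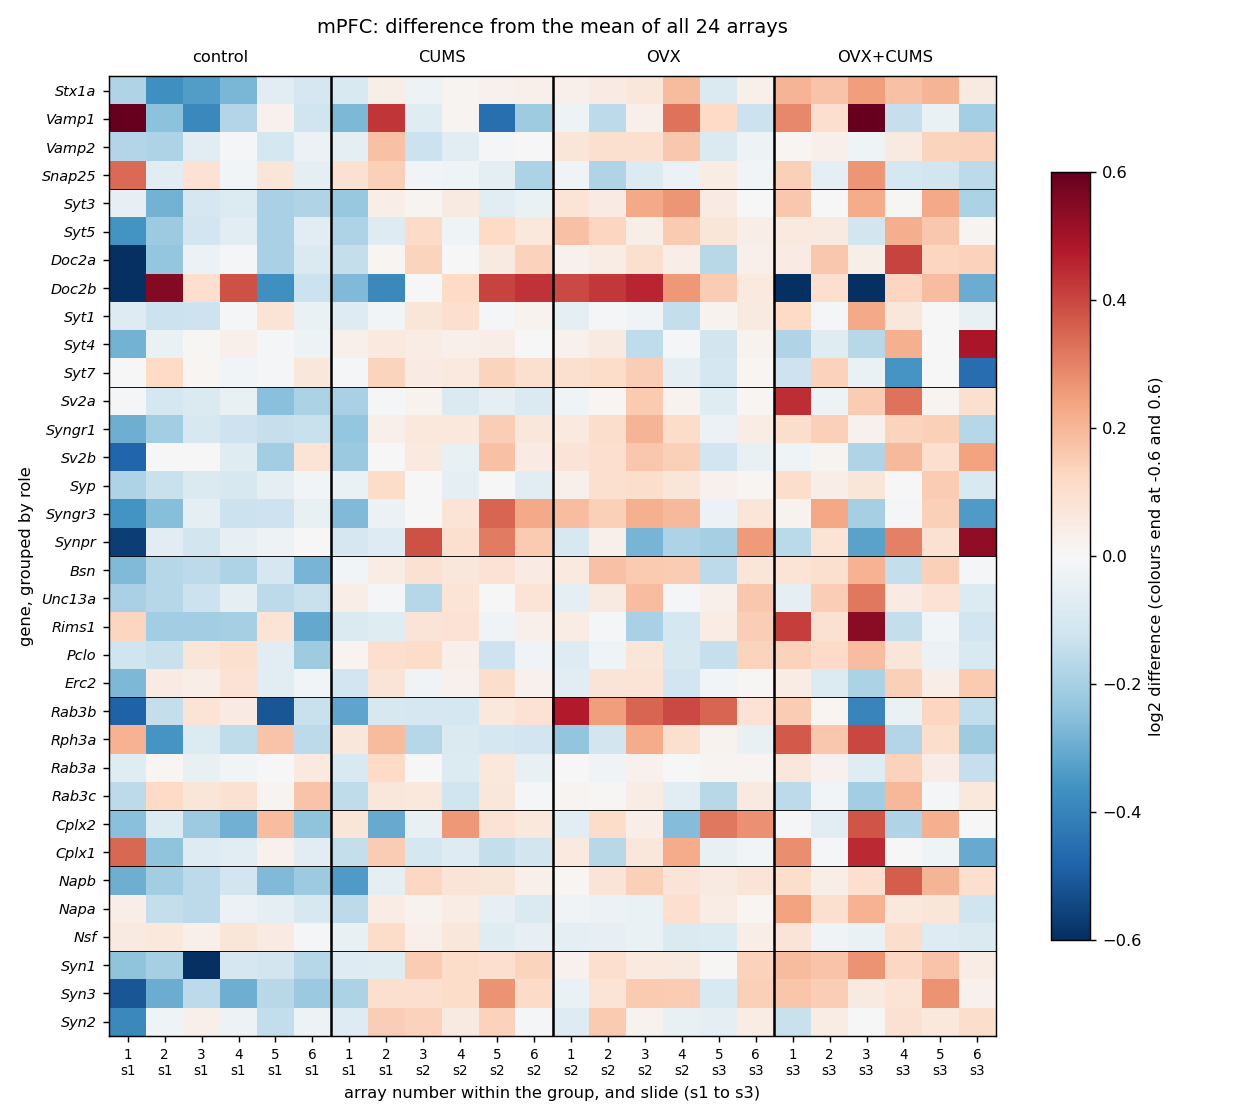
Each cell is the log2 difference of 1 gene on 1 mPFC array from the mean of all 24 arrays, colours ending at -0.6 and 0.6, with genes grouped by role and arrays by group, number and slide (s1 to s3). Most cells of the control arrays, all on slide 1, are below the mean in the synapsin, active zone and disassembly genes. The colours are relative to the 75th percentile scaling.

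Since slide and group were almost nested, the comparisons inside a slide were read on their own. Within slide 1, 30 of the 34 genes were higher on the 2 CUMS than on the 6 control arrays (median 0.04, all genes -0.01), within slide 2, 19 of 34 were higher on the 4 OVX than on the 4 CUMS arrays (median 0.02, all genes 0.02), and within slide 3, 26 of 34 were higher on the 6 OVX+CUMS than on the 2 OVX arrays (median 0.05, all genes 0.01). None of the 34 passed the adjusted limma threshold within a slide (2, 5 and 1 had an unadjusted p under 0.05), and of all genes 0.0439% passed within slide 2. The same group also differed between slides: CUMS arrays of slide 2 exceeded those of slide 1 at the median gene by 0.05 (23 of 34 higher), and OVX arrays of slide 3 were below those of slide 2 by 0.05 (11 of 34 higher).

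Neuron and microglia markers were also mostly higher in OVX+CUMS than in control mice, where 21.1% of all genes were called higher and 14.1% lower. Of 9 detected neuron markers, 5 were higher (Camk2a, Dlg4, Eno2, Grin1 and Rbfox3) and 1 lower (Tubb3) in OVX+CUMS than in control mice, with a median of 0.15. Their mean per array ranged from -0.15 to 0.09 in control and from -0.003 to 0.17 in OVX+CUMS mice. Of 8 microglia markers 6 were higher, with a median of 0.23 and ranges of -0.16 to -0.03 and -0.05 to 0.19. For the OVX effect the neuron markers gave 2 higher and 1 lower (median 0.08) and the microglia markers 6 higher (median 0.16). Of all genes 19.8% were higher and 12.8% lower with OVX, and the median of the 34 release genes was 0.11. The mean of the neuron markers was 0.02 in CUMS and -0.02 in OVX mice, where that of the 34 release genes was 0.01 and 0.04. Of the astrocyte markers none was called in either comparison. The part of these markers in the result was not tested.

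The wider pathway held calls in both directions. Of 69 other genes of vesicle release and recycling, all detected in mPFC, 13 were higher and 6 lower with OVX (median 0.05). In OVX+CUMS against control mice 13 were higher and 8 lower (median 0.07). Of all detected genes 19.8% were higher and 12.8% lower with OVX (median 0.04). For OVX+CUMS against control 21.1% of all genes were higher and 14.1% lower (median 0.06). The pathway counts are at the 75th percentile scaling and were not computed with spike-ins. Among the genes higher with OVX were the glutamate transporter of cortical vesicles Slc17a7 (VGLUT1, 0.21, adjusted p = 0.000503), the GABA transporter Slc32a1 (0.12), the Rab3 regulator Rab3gap2 (0.21) and the liprin scaffolds Ppfia3 (0.14) and Ppfia4 (0.22). Lower were Cplx4 (-0.53, adjusted p = 0.00279) and Syngr4 (-0.44, adjusted p = 0.00394), which had the largest changes. The others were the vesicular transporter Slc17a8 (VGLUT3, -0.20, adjusted p = 0.0196), the endocytic scaffold Itsn1 (intersectin, -0.28), Pacsin1 (syndapin 1, -0.22) and the vesicle chaperone Dnajc5 (-0.20). With CUMS, Slc17a7 (0.15, adjusted p = 0.0401) and Rab3gap2 (0.21, adjusted p = 0.0234) were higher. Slc17a6 (VGLUT2, -0.51, adjusted p = 0.0185), Slc17a8 (-0.33) and Cadps2 (-0.27, adjusted p = 0.0374) were lower. At this scaling the main cortical glutamate transporter Slc17a7 and the other 2 glutamate transporters, Slc17a6 and Slc17a8, thus went opposite ways with CUMS. With the slide as a block 0 of all genes were called for CUMS in mPFC. Spike-in scaling moved the median CUMS effect of all genes from 0.01 to -0.11, and these 3 transporters were not read with it.

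In blood, 17 of the 36 genes were detected, and for several of these the reading rested on a repetitive probe. Detection required a signal well above background on all 24 blood arrays. It was met by Snap25, Vamp1, Vamp2, Doc2a, Syt5, Syngr1, Syngr3, Syp, Erc2, Pclo, Rab3a, Rab3c, Cplx2, Napa, Napb, Nsf and Syn3. With the weaker mark of a positive and significant signal alone, and no minimum signal, 26 genes were detected. Stx1a and Syn1 were above background on 22 of the 24 blood arrays, Syt1 on 16 and Bsn on 12. Syt2, Syt7 and Unc13a reached it on 1 array, and Sv2a, Synpr and Syt4 on none. Sv2c was above background on 24 arrays but its signal was too low for the filter.

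For 12 of the 17 genes the brightest mPFC probe was also detected in blood. For Erc2, Napb, Pclo, Rab3c and Syngr1 it was not, being above background on 1, 1, 3, 0 and 0 of the 24 blood arrays, and another probe of the gene was detected instead. For Rab3c the detected probes were the 2 overlapping ones that carry the B1 letters shown above, and the probe without them was above background on 0 arrays. For Cplx2 the 4 probes of A and G were detected, while the probe of mixed bases was above background on 23 of 24 arrays and so missed the rule.

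**Figure D4:**
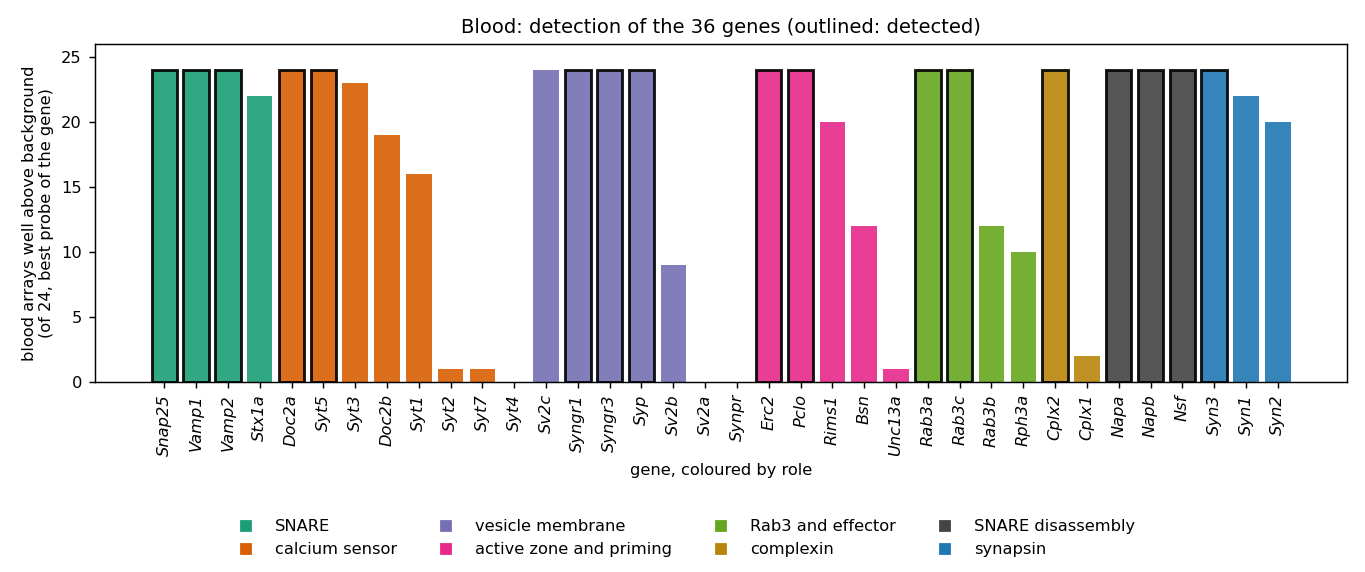
Number of the 24 blood arrays on which the best probe of each of the 36 genes was well above background, coloured by role. Outlined bars are the 17 genes that met the detection rule. Disassembly factors were all detected, whereas Sv2a, Synpr and Syt4 stayed at 0.

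Blood values differed between groups in both directions. With OVX 6 of the 17 genes were higher (Cplx2, Nsf, Rab3a, Rab3c, Vamp1 and Vamp2) and 6 lower (Napa, Pclo, Syn3, Syngr1, Syp and Syt5), against 28% of all detected genes higher and 28.3% lower. With CUMS 5 were higher (Napa, Syngr3, Syp, Syt5 and Vamp1) and 3 lower (Nsf, Rab3a and Vamp2), against 19% and 30.2%. Between OVX+CUMS and control mice only Vamp1 (1.29, adjusted p = 0.00132) and Pclo (-0.64, adjusted p = 0.0291, lost in 6 of 24 fits without 1 array) were called, where 4.12% of all genes were higher and 2.23% lower. These directions depended on the scaling: with spike-ins the 9 genes called for OVX were all higher and the 5 called for CUMS all lower, and the median of all genes moved from 0.05 to 0.40 and from -0.03 to -0.33. Of all detected genes, spike-ins called 8486 higher and 1208 lower for OVX, and 409 higher and 7234 lower for CUMS. With the slide as a block 0 of the 17 and 0 of all genes were called for OVX. For CUMS that fit called 8 of the 17 (5 higher, 3 lower), not including Napa (adjusted p = 0.11) or Vamp1 (adjusted p = 0.681). Of all 16322 detected genes it called 3654 higher and 4712 lower for CUMS. Within slide 2 the 4 OVX arrays were higher than the 4 CUMS arrays for 6 of the 17 genes and lower for 7, where 53.2% of all genes were called.

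Syp, the vesicle marker, was 3.63, 3.71 and 4.12 in control blood, 3.58, 3.77 and 4.39 in CUMS, 2.83, 2.96 and 3.17 in OVX and 3.11, 3.44 and 3.67 in OVX+CUMS blood. Every OVX array was below every array of control and CUMS mice. For OVX the effect was -0.61 ± 0.09 (adjusted p = 9.08e-05) and the CUMS effect 0.25 (adjusted p = 0.0241). Napa ran the same way, at 4.97, 5.07 and 5.41 in control, 5.03, 5.52 and 5.77 in CUMS, 4.53, 4.67 and 4.94 in OVX and 4.52, 4.83 and 4.98 in OVX+CUMS blood. Its OVX effect was -0.55 ± 0.09 (adjusted p = 0.000104), while its second probe gave 0.09 and was not called. Syt5 was lower with OVX (-0.53, adjusted p = 0.000898) and higher with CUMS (0.54, adjusted p = 0.00177). With the slide as a block in limma, the OVX effects of Syp, Napa and Syt5 were -0.38, -0.54 and -0.67 (adjusted p = 0.789, 0.718 and 0.718). None of the OVX effects of these genes was called with spike-ins either. The CUMS call of Napa was lost in 12 of 24 fits without 1 array, and the second Napa probe gave -0.03 for CUMS.

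Erythroid markers went the same way as these 3 genes: 7 of 8 were lower with OVX (median -0.57) and 7 of 8 higher with CUMS (median 0.56). Their mean per array ranged from -0.41 to 0.81 in control, 0.23 to 1.23 in CUMS, -0.95 to 0.16 in OVX and -0.34 to 0.52 in OVX+CUMS blood. B cell markers went the other way, 6 of 8 higher with OVX (median 0.39) and 7 of 8 lower with CUMS (median -0.48), as did Vamp2 (0.38 and -0.34), Rab3a (0.40 and -0.37) and Nsf (0.42 and -0.37). Second probes of Vamp2 (-0.51) and Nsf (0.23) were not called for OVX. Their part in these values was not tested.

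Vamp1 was higher with both treatments. Its level was 1.43, 1.62 and 1.84 in control, 1.61, 1.98 and 3.05 in CUMS, 1.71, 2.40 and 2.99 in OVX and 2.53, 2.86 and 3.16 in OVX+CUMS blood, so that the control and OVX+CUMS groups did not overlap (3.91% of all genes stood wholly higher and 4.56% wholly lower). The OVX effect was 0.74 ± 0.17 (adjusted p = 0.00134) and the CUMS effect 0.54 (adjusted p = 0.0131), but with the slide as a block the OVX effect was -0.14 (adjusted p = 0.967), the CUMS effect 0.10 (adjusted p = 0.681) and the combined difference -0.03 (adjusted p = 0.981).

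The largest OVX effects in blood among these genes came from the Cplx2 probes. At the brightest, the level was 4.45, 5.41 and 6.57 in control, 4.86, 5.76 and 6.49 in CUMS, 5.94, 6.89 and 7.21 in OVX and 5.98, 6.56 and 7.22 in OVX+CUMS blood, a difference of 1.10 ± 0.26 (adjusted p = 0.00164). The median of the 4 A and G probes of Cplx2 was 1.14. Of 37 other probes with at least 95% A and G, 35 were detected in blood, and all 35 were higher with OVX, with a median of 1.13. Whether these probes read the Cplx2 gene in blood was not tested.

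Rab3c in blood, read through the probes with the B1 letters, was 4.61, 5.22 and 5.70 in control, 3.65, 4.17 and 4.90 in CUMS, 4.60, 4.91 and 6.01 in OVX and 5.12, 5.56 and 5.92 in OVX+CUMS blood. The CUMS group stood lowest. It was the 1 member called for an interaction (1.33 ± 0.33, adjusted p = 0.0471, with 1.42% of all genes called higher and 0.141% lower), and 19 of 24 fits without 1 array lost that call. With the slide as a block the interaction was 0.21 (adjusted p = 1.0), and with the replicate number as a block its adjusted p was 0.0926 in limma. For OVX the difference was 0.61 (adjusted p = 0.00468), and the 6 other probes on the array with the same letters had a median of 0.11. Snap25, whose probe begins with CA repeats, was 6.74, 7.25 and 7.47 in control, 6.77, 6.89 and 7.42 in CUMS, 6.63, 7.02 and 7.48 in OVX and 6.84, 7.28 and 7.5 in OVX+CUMS blood. Its groups overlapped (OVX effect 0.04, adjusted p = 0.77), and all 25 other probes with 9 such repeats were detected in blood too.

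The OVX effect differed between blood and mPFC for 18 of the 24 member probes detected in both tissues, and the CUMS effect for 8 of 24, against 39.3% and 51.4% of all probes detected in both (limma with the mouse as a random block). By gene, 13 of 17 differed for OVX and 8 of 17 for CUMS. At the 75th percentile scaling, Syp, Napa, Syt5, Syngr1 and Syn3 were higher with OVX in mPFC and lower in blood, the gap being -0.66 to -0.89. With spike-ins Syp (-0.03) and Napa (-0.03) were negative in mPFC as well, and none of these genes was called for OVX in either tissue. With the slide as a block the OVX effect in blood was 0.23 for Syn3 and -0.06 for Syngr1. The second Napa probe gave 0.09 in blood and -0.02 in mPFC for OVX, a difference of 0.10 (adjusted p = 0.292). Syn3 was read differently by its second probe, which was higher with OVX in blood (0.99, adjusted p = 0.00412) and gave -0.26 in mPFC. Vamp2 was higher with OVX in both tissues (0.11 in mPFC and 0.38 in blood, difference 0.27, adjusted p = 0.0177).

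**Figure D5:**
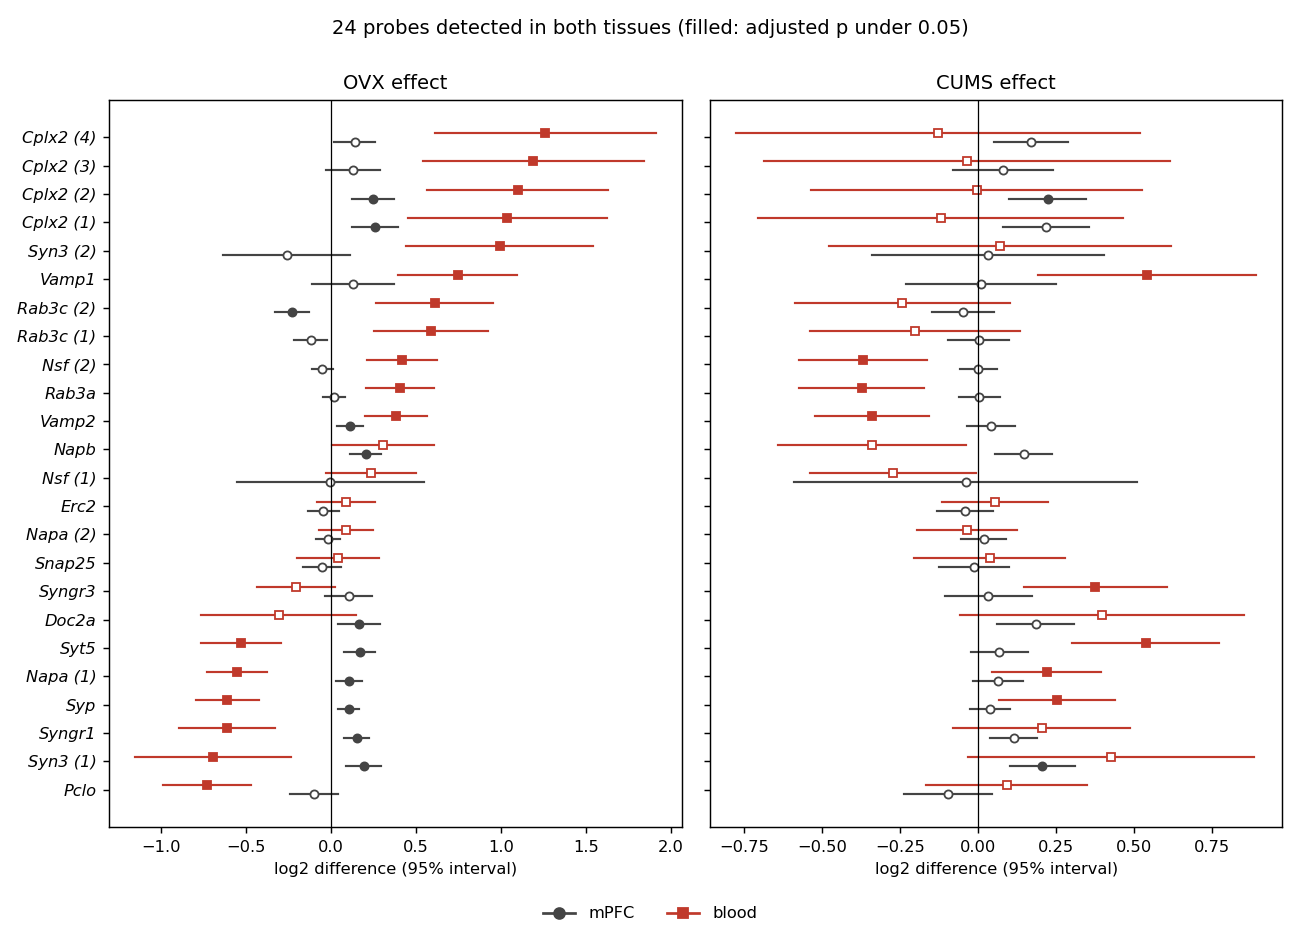
OVX effect and CUMS effect (log2 difference with 95% interval) of the 24 probes detected in both tissues, mPFC as circles and blood as squares, filled where the adjusted p was under 0.05. Probes of 1 gene are numbered. Blood effects reach further from 0 on both sides than mPFC effects, and the 4 Cplx2 probes, made of A and G, stand at the top for OVX in blood; signs are relative to the 75th percentile scaling.

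Promoters of the genes were read for known motifs, since 15 of them were called in the same direction in mPFC. Promoter sequences (250 bases before to 50 after the start) came from RefSeq, build GRCm38.p6, which held 27 of the 36 genes. On either strand, the GC box GGGCGG was in 21 of 27 (77.8%, all promoters 38.2%), being in 7 of the 11 genes called for OVX that had a promoter and in 14 of the other 16. The full palindromic estrogen response element was in 0 of 27 (all promoters 0.074%), its shorter form AGGTCA in 4 (14.8%, all promoters 18.1%), the glucocorticoid response element in 0 (0.0111%), and the cAMP response element TGACGTCA in Napa and Syn1 (7.41%, all promoters 2.03%). The left part of the RE1 element, TTCAGCACC, bound by the neuronal repressor REST, was in Syn1 and Unc13a (7.41%, all promoters 0.433%), and the right part in Unc13a alone (3.7%, all promoters 0.614%). A match is a description of the letters only. Stretches from the promoters of Syn1 and Stx1a, which had among the largest combined differences, are shown with the motif matches in capitals (RE1 left part and cAMP response element in Syn1, GC box in Stx1a):
Syn1, 250 to 151 bases before the start (chrX:20921069-20921168, minus strand): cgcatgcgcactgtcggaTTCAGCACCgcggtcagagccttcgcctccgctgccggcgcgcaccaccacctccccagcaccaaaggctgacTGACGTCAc
Stx1a, 100 bases before the start (chr5:135023382-135023481, plus strand): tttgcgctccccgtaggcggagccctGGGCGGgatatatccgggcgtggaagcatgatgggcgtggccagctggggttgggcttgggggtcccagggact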

How the data were processed

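RNA of mPFC and blood from 24 mice was labelled with Cy3 and hybridised to one-colour Agilent mouse arrays. Deposited spot intensities are the authors' processed signals from Feature Extraction 10.7.3.1, which subtracts background. The authors' deposited normalized values are log2 intensities shifted by each array's 75th percentile, and 100% of 55249 single-spot probes were within 0.001 of the values recomputed here.

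Control and outlier spots were left out, log2 spots of a probe averaged, and the 75th percentile subtracted. A probe was detected when positive, significant and well above background on all 24 arrays of a tissue, with a signal above 50 on at least 2 (28358 probes in mPFC, 20767 in blood, 17544 in both). limma 3.58.1 (R 4.3.3, data.table version 1.17.8; Python 3.11.15, pandas 2.3.3, matplotlib 3.10.9) was fitted to all detected probes with the 4 groups, two-sided, with Benjamini-Hochberg adjustment over all of them at 0.05 (prior degrees of freedom 2.55 and 4.02). Surgery, stress and their interaction follow the two-way layout of the study, and the tissues were compared in 1 fit, mouse being a random block (correlation 0.059). Scripts were tested on simulated data. Single probes were also compared by exact permutation.

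A gene is read at its brightest detected probe, and other probes are given where direction or call differs. All 36 genes are named; values by group are given for up to 4 called genes with the largest change per mPFC comparison and for Snap25, Stx1a, Vamp2, Syt1, Syp and Syn1, and blood genes beyond these, Doc2a and the probes with repetitive letters were picked after their values were seen. The members, marker and pathway lists were chosen with earlier results of these data known, so no list-wide p is given. Alternatives were normexp background correction (offset 50), quantile and spike-in scaling, the percentile over detected probes, other detection filters, the authors' normalized values, no moderation, slide or replicate as a block, the mean of a gene's probes and leaving out each array. Exons, introns and proteins were not analysed here. The sequences of 2 probes are not reported here.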

Additional observations from a re-analysis of the deposited data

Results flagged for a closer look

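Among 64 groups of 6 arrays looked at for an array far from its group, 4 had one, where chance gives about 1 in 20. In mPFC, Snap25 on control array 1 was 6.82 (next 6.57) and Syn1 on control array 3 was 5.69, the lowest (next 6.32). In blood, Syp on control array 2 was 4.12 (next 3.81) and Syp on CUMS array 2 was 4.39 (next 3.88), all log2.

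The OVX effect differed between blood and mPFC at the brightest blood probe of 13 of 17 genes (limma, blood minus mPFC, log2). Of all probes detected in both tissues 39.3% differed. Blood was the lower for Syn3 (-0.89), Syngr1 (-0.76), Syp (-0.72), Syt5 (-0.70), Napa (-0.66), Pclo (-0.63) and Syngr3 (-0.31), and the higher for Cplx2 (0.85), Rab3c (0.84), Vamp1 (0.61), Nsf (0.47), Rab3a (0.39) and Vamp2 (0.27). The CUMS effect differed for 8 of 17 genes, where 51.4% of all probes detected in both differed, so these genes did not stand out. Vamp1 (0.53), Syt5 (0.47), Syngr3 (0.34) and Syp (0.22) were the higher in blood, and Napb (-0.49), Vamp2 (-0.38), Rab3a (-0.38) and Nsf (-0.37) the lower. In blood, the CUMS effect on Rab3c after OVX exceeded that after sham by 1.33. These differences were tested against the spread between mice, but the slides are shared in the same way by group in both tissues, and their part was not tested.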

How the results depend on the processing

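In mPFC the count of genes called for OVX was 15 (all higher). It was 10 with normexp (all higher), 8 with quantile normalization (7 higher, 1 lower) and 10 with the percentile over detected probes (9 higher, 1 lower). It was 3 with spike-ins (all lower), 9 of the 17 genes left over probes detected on all 48 arrays (8 higher, 1 lower) and 0 with the slide as a block. Of all 20524 detected genes, 4407 were higher and 2740 lower for OVX with normexp, and 3000 and 2906 with quantile normalization. With the percentile over detected probes they were 2775 and 3037, and with spike-ins 98 and 4487. For CUMS the count of member genes was 2, and 0 with spike-ins, with no detection filter or with the slide block, and 1 with the mean of a gene's probes. For OVX+CUMS against control it was 14 (all higher). It was 14 with normexp (12 higher, 2 lower), 12 with quantile normalization (10 higher, 2 lower) and 11 with the percentile over detected probes (10 higher, 1 lower). It was 6 with spike-ins (all lower), 9 of 17 over probes of all 48 arrays (8 higher, 1 lower) and 0 with the slide block. Of all detected genes, 4803 were higher and 3012 lower for this difference with normexp, and 3423 and 3150 with quantile normalization. With the percentile over detected probes they were 2967 and 3464, and with spike-ins 85 and 7680. In blood the OVX count of 12 became 0 with the slide block, the CUMS count of 8 became 5 with spike-ins (all lower), and the combined count of 2 became 1 with spike-ins and 0 with the slide block. The 1 interaction call became 2 with normexp and 0 with the percentile over detected probes, spike-ins, no filter, no moderation, the slide block or the replicate block. The number of genes read in blood depended on the detection rule, being 26 instead of 17 without both the well-above-background mark and the minimum signal. The blood minus mPFC count for CUMS was 8, and 4 with spike-ins and 5 with normexp, both chosen after seeing the data. With spike-ins the sign turned in mPFC for OVX of Napa (-0.0313), Syp (-0.0323) and Vamp2 (-0.0267), for the combined difference of Napa (-0.0859), Syngr1 (-0.026), Syp (-0.11), Syt3 (-0.0352), Syt5 (-0.0189), Unc13a (-0.0372) and Vamp2 (-0.10), and in blood for CUMS of Napa (-0.0811) and Syp (-0.0475). With the slide block it turned in blood for OVX of Syn3 (0.23) and Vamp1 (-0.14) and the combined Vamp1 (-0.0331), and with the mean of probes for OVX of Syn3 in mPFC (-0.0361) and of Syn3 (0.15) and Vamp2 (-0.0638) in blood. The cause was not tested. Without 1 array each, mPFC counts ran from 12 to 15 (OVX), 1 to 5 (CUMS; 5 without CUMS array 1, 1 without CUMS arrays 3, 4, 5 or 6 or OVX array 1), 0 to 5 (interaction; 5 without CUMS array 1, 2 without CUMS array 2, 1 without OVX array 5 or 6) and 13 to 16 (combined), and blood counts from 12 to 14, 7 to 10, 0 to 4 (interaction; 4 without CUMS array 2, 0 in 19 of 24) and 1 to 3 (combined; 1 without control array 1, 2 or 6 or OVX+CUMS array 2, 3 or 5). Mice of different groups are not paired by replicate number: arrays of the same number correlated by -0.23 to 0.39 in mPFC and -0.51 to 0.49 in blood, and with the replicate block the counts were 14, 3, 0 and 15 in mPFC and 12, 7, 0 and 2 in blood.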
